A study of Mus musculus with 2 samples.

Results

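AP-1 is a dimeric transcription factor whose subunits share a basic region and leucine zipper. The transcripts of 10 such factors were compared between 2 libraries: the FOS family genes Fos, Fosb, Fosl1 and Fosl2, the JUN family genes Jun, Junb and Jund, and the related genes Atf3, Batf and Maff. The members were taken by gene symbol, and all 10 were found among the 20003 genes of the deposited table. The series asked how a hedgehog inhibitor changes macrophage mRNA, and held a library labelled M2+GANT61 and a library labelled M2+DMSO, 1 of each. The compound GANT61 is a small molecule that inhibits the GLI transcription factors of Hedgehog signalling, given here at 10 µM, and DMSO is its solvent.

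Both libraries were labelled as RAW 264.7, a mouse macrophage line transformed by a leukaemia virus. Per the labels' protocols, both had received M-CSF at 20 ng/mL overnight, then GANT61 or DMSO 4 h before IL-4 at 10 ng/mL. The time with IL-4 was given as 15 min in the treatment text and as 24 h in the growth text. These differ for genes such as Fos, whose mRNA is made and lost quickly, and it is not known which of these times applies to the libraries. The labels describe 1 library per group, so the spread between replicates is unknown and no p-value is given. The libraries are named by their labels throughout, since both also held abundant transcripts that define other cell types, such as Col3a1, a collagen of fibroblasts, at 3394 CPM in the GANT61 library and 3044 CPM in the DMSO library. CPM are read counts scaled to a common library size.

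JUN proteins pair with each other or with FOS proteins, while FOS proteins do not form stable pairs among themselves. The pairs bind a short palindrome known as the AP-1 or TPA response element. MAP kinases act on the family both through transcription of its genes and by phosphorylating its proteins. In macrophages AP-1 takes part in the response to growth factors and to inflammatory signals. BATF, ATF3 and the small MAF proteins pair with some AP-1 subunits and lack the strong activating domain of FOS.

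The libraries held 57705874 reads (GANT61) and 61632784 reads (DMSO) assigned to genes. Levels are CPM of library sizes corrected by edgeR's TMM method, which takes most genes to be alike in both libraries. Ratios are of the GANT61 library over the DMSO library, with 95% exact intervals that cover counting error only. A gene was called higher at a ratio of at least 1.5, or lower at its inverse or less, if the interval excluded 1 and the mean was at least 1 CPM.

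Among the 10 members, 5 were called higher in the GANT61 library (Fosl1, Atf3, Fosl2, Batf and Maff), 1 was called lower (Fos) and 4 were neither (Jun, Junb, Jund and Fosb). Over the 13939 genes whose mean reached 1 CPM, 14.1% were called higher and 10.3% lower by the same rule. The members' median log2 ratio was 0.53, beside -0.01 over those 13939 genes. The members' levels lay between 6.72 and 350.4 CPM on average over the libraries, and of the 10849 genes within that range 11.2% were called higher and 8.17% lower. At a threshold of 2-fold, 3 members were called higher (Fosl1, Atf3 and Fosl2) and 0 lower, beside 6.97% called higher and 4.27% called lower of all 13939 genes. In RNA from a whole sample, fewer cells of a type and less RNA per cell cannot be told apart.

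**Figure D1:**
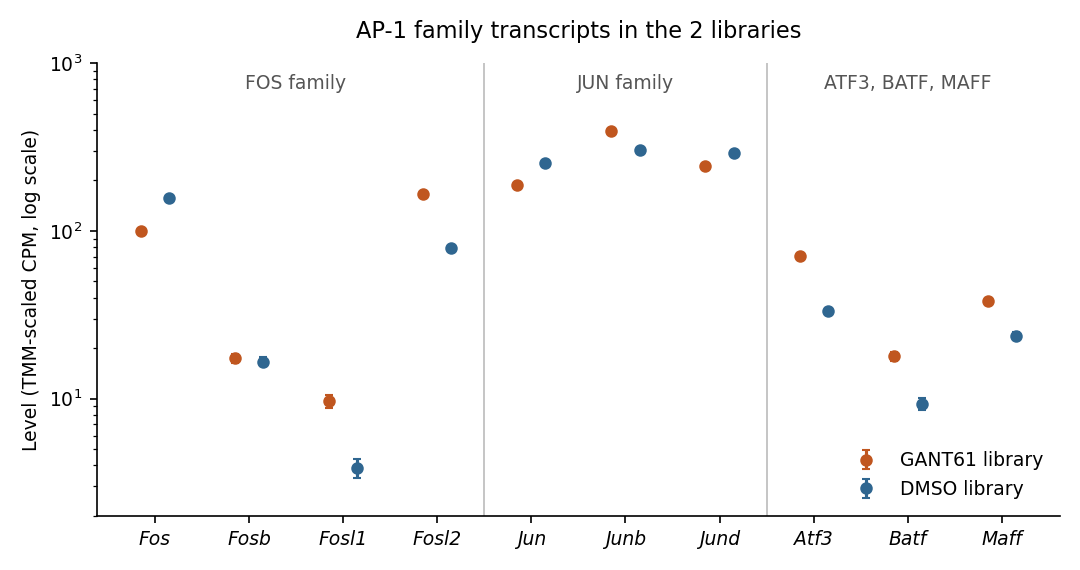
Level of each AP-1 member in TMM-scaled CPM on a log axis, GANT61 library left and DMSO library right, with 1 point per library and 95% exact Poisson intervals. Fosl1, Fosl2, Atf3, Batf, Maff and Junb lie higher in the GANT61 library, Fos, Jun and Jund lie lower, and Fosb is at 17.4 and 16.6 CPM. Of these, Junb, Jun, Jund and Fosb were short of the threshold for a call.

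Fos is the founding member of its family and the classic immediate early gene. It lies on chromosome 12 at 85473890 to 85477273, plus strand (all gene positions are from GENCODE M21, mm10). Fos had 5641 reads in the GANT61 library and 9773 reads in the DMSO library, or 99.3 and 156 CPM. Its ratio was 0.636 (0.615 to 0.657), just past the threshold for a lower call. A log2 ratio this low or lower was found in 8.78% of the genes considered, so the value is not rare among them.

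Fosl2 (Fra-2) and Fosl1 (Fra-1) encode FOS-related antigens that lack the long activating tail of FOS and usually appear later and last longer after a stimulus. Fosl2, on chromosome 5 at 32135801 to 32157842, plus strand, had 9413 reads in the GANT61 library and 4970 reads in the DMSO library, or 166 and 79.4 CPM. Its ratio was 2.09 (2.02 to 2.16). A log2 ratio at least as high was found in 6.34% of the genes considered.

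Fosl1, on chromosome 19 at 5447547 to 5455946, plus strand, had the fewest reads of the members, with 546 reads in the GANT61 library and 240 reads in the DMSO library. These are 9.61 and 3.83 CPM, and its ratio of 2.5 (2.15 to 2.93) was the highest of the 10. A log2 ratio at least as high was found in 4.28% of the genes considered. Fosl1 overlaps Ccdc85b on the other strand by 2767 bases, and whether reads were counted by strand was not given in the sources used here. Ccdc85b had 2038 reads in the GANT61 library and 2860 reads in the DMSO library, a ratio of 0.785 (0.741 to 0.831), so the overlapping gene differed in the other direction. The Fosl1 value is therefore uncertain in size.

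Fosb, a close relative of Fos whose short splice form is stable, lies on chromosome 7 at 19302696 to 19310051, minus strand. It had 987 reads in the GANT61 library and 1036 reads in the DMSO library, or 17.4 and 16.6 CPM. Its ratio of 1.05 had an interval of 0.961 to 1.15, which includes 1. The full-length and short forms were not counted apart, so nothing is known here of their balance.

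Jun, on chromosome 4 at 95049034 to 95052222, minus strand, encodes the main activating partner of FOS. It had 10711 reads in the GANT61 library and 15978 reads in the DMSO library, or 188 and 255 CPM. Its ratio was 0.738 (0.720 to 0.757), on the lower side like Fos but short of the threshold. The annotation places the antisense gene Junos over 689 bases of Jun, and the antisense transcript was not analysed here.

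Junb, which activates less strongly than JUN and can oppose it, lies on chromosome 8 at 84974484 to 84978718, minus strand. It had the most reads of the members in both libraries, with 22509 reads in the GANT61 library and 19069 reads in the DMSO library, or 396 and 305 CPM. Its ratio was 1.30 (1.28 to 1.33), higher but short of the threshold. The end of Junb overlaps Prdx2, a peroxide-removing enzyme on the other strand, by 351 bases. Prdx2 was called lower, with 246 CPM in the GANT61 library and 431 CPM in the DMSO library, a ratio of 0.570 (0.558 to 0.581). Reads of the shared end may not have been told apart.

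Jund, on chromosome 8 at 70698949 to 70700616, plus strand, is the family member that resting cells express steadily. It had 13854 reads in the GANT61 library and 18134 reads in the DMSO library, or 244 and 289.8 CPM. Its ratio was 0.841 (0.823 to 0.860). With the trend of the ratio in transcript GC content removed, its log2 ratio was 0.09 instead of -0.25, so its direction depends on that choice. An antisense gene, Gm11175, overlaps 919 bases of Jund in the annotation.

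Atf3, on chromosome 1 at 191170296 to 191218039, minus strand, encodes a stress-induced factor that as a dimer with itself represses transcription and that restrains cytokine genes in macrophages. It had 4046 reads in the GANT61 library and 2077 reads in the DMSO library, or 71.2 and 33.2 CPM. Its ratio was 2.15 (2.03 to 2.26).

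Batf, on chromosome 12 at 85686669 to 85709087, plus strand, encodes a factor that pairs with JUN proteins and works with IRF4 and IRF8 in lymphocytes and dendritic cells. It had 1012 reads in the GANT61 library and 581 reads in the DMSO library, or 17.8 and 9.28 CPM, a ratio of 1.92 (1.73 to 2.13). Beside it, markers of T and natural killer cells, with summed levels of 156 CPM in the GANT61 library and 162 CPM in the DMSO library, went both ways, with log2 ratios of -0.47 to 0.99. Of 9 such markers 2 were called higher and 0 lower, beside 14.1% and 10.3% of all genes considered, and 5 had ratios below 1. B cell markers summed to 128 CPM in the GANT61 library and 121 CPM in the DMSO library.

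Maff, on chromosome 15 at 79346621 to 79359076, plus strand, encodes a small MAF protein, which has no activating domain of its own. It had 2155 reads in the GANT61 library and 1473 reads in the DMSO library, or 37.9 and 23.5 CPM. Its ratio of 1.61 (1.51 to 1.72) was the smallest of the 5 called higher, and with Fos it lay nearest to the threshold among called members.

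**Figure D2:**
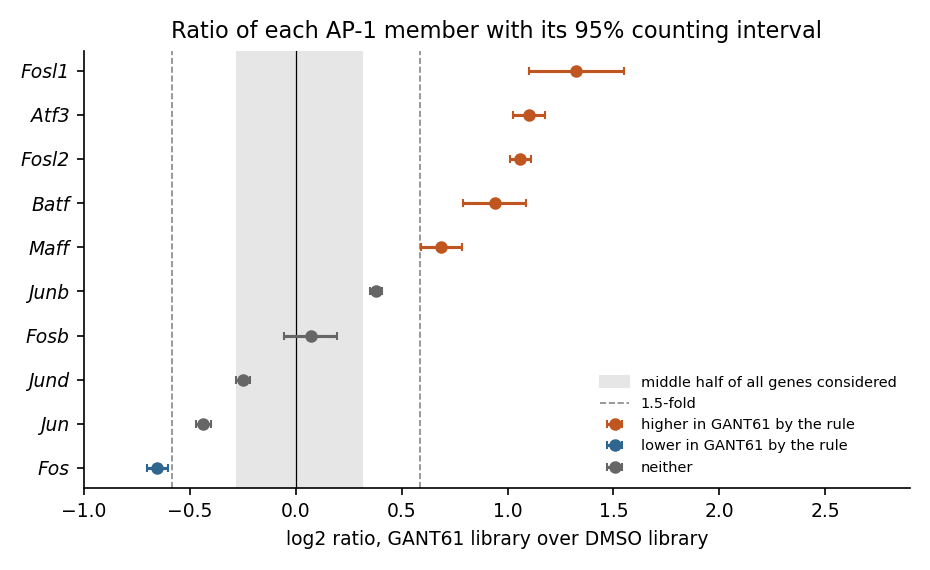
log2 ratio of each member, GANT61 library over DMSO library, with 95% counting intervals, ordered by ratio, beside the 1.5-fold thresholds (dashed) and the middle 50% of the 13939 genes considered (grey, -0.28 to 0.31). Fosl1, Atf3, Fosl2, Batf and Maff lie above the upper threshold, Fos lies below the lower one, and Jund and Fosb lie inside the grey band.

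The make-up of the FOS family differed between the libraries. Levels of different genes were compared per length, within a library, with the authors' RPKM values (reads per kilobase of gene model, scaled to the library total). Fos was at 37.2 RPKM in the GANT61 library and 58.7 RPKM in the DMSO library, and Fosl2 was at 22.3 RPKM in the GANT61 library and 10.7 RPKM in the DMSO library. Fos thus made up 55.0% of the summed RPKM of its family in the GANT61 library, against 78.6% in the DMSO library. Fosl2 made up 33.0% in the GANT61 library and 14.4% in the DMSO library, and Fosl1 made up 6.59% and 2.38%. Fosb held 5.38% in the GANT61 library and 4.65% in the DMSO library.

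These shifts can be stated without any scaling of the libraries, by setting one member against another within each. Relative to Fos, Fosl1 was 3.94-fold higher in the GANT61 library than in the DMSO library (3.37 to 4.62). On the same measure Fosl2 was 3.28-fold higher (3.13 to 3.44) and Atf3 was 3.37-fold higher (3.17 to 3.59). Batf was 3.02-fold higher (2.71 to 3.36), Maff 2.53-fold (2.35 to 2.73) and Fosb 1.65-fold (1.5 to 1.81). Jun moved closest to Fos, at 1.16-fold (1.11 to 1.21), and Jund was at 1.32-fold (1.27 to 1.38). The intervals of all 9 members lay above 1, so Fos had the lowest ratio of the family beyond counting error. Since Fos was the lowest, taking it as reference puts every other member above 1 and gives the largest folds. Relative to Jun, Fosl1 was 3.39-fold higher in the GANT61 library, Atf3 2.91-fold and Fosl2 2.83-fold, and Fos was at 0.861. The sizes depend on the processing for some members. With the GC trend removed, the log2 value relative to Fos was 0.76 instead of 0.40 for Jund and 1.23 instead of 1.03 for Junb. With the trend in gene length removed, that of Fosl2 was 1.61 instead of 1.71. None of the 9 changed direction.

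In the JUN family Junb took a larger share in the GANT61 library and Jun a smaller one. Junb made up 59.9% of the summed JUN family RPKM in the GANT61 library and 47.8% in the DMSO library. Jun made up 16.5% in the GANT61 library and 23.1% in the DMSO library, and Jund made up 23.6% and 29.1%. Relative to Jun, Junb was 1.76-fold higher in the GANT61 library than in the DMSO library (1.71 to 1.82). With the GC trend removed, the Junb log2 ratio was 0.56 instead of 0.38, while that of Jun stayed at -0.44, so the size of this shift depends on that choice.

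The order of the members by RPKM was nearly the same in both libraries. From high to low it was Junb, Jund, Jun, Fos, Atf3, Fosl2, Batf and Maff in each, and only the last places differed. Fosl1 stood above Fosb in the GANT61 library, at 4.45 and 3.63 RPKM, and below it in the DMSO library, at 1.78 and 3.48 RPKM. Neighbours in the order differed beyond counting error throughout the GANT61 library. In the DMSO library the exception was Batf at 8.14 RPKM (7.50 to 8.83) beside Maff at 7.19 RPKM (6.83 to 7.56). The summed FOS family stood at 0.238 of the summed JUN family in the GANT61 library and at 0.272 in the DMSO library.

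**Figure D3:**
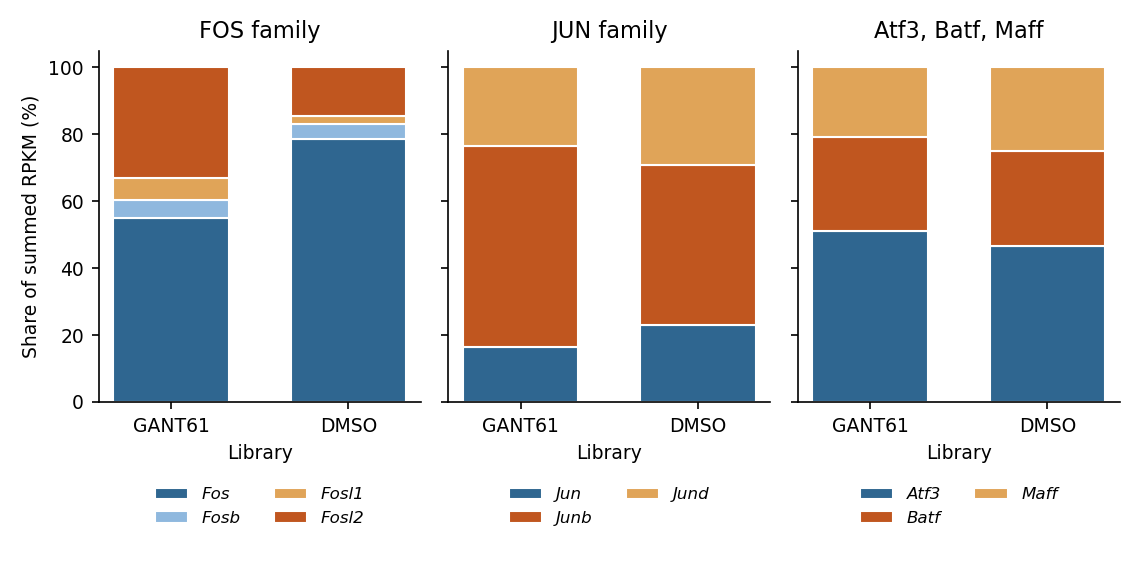
Share of each gene in the summed RPKM of the FOS family, the JUN family and the group of Atf3, Batf and Maff, in percent, GANT61 library left and DMSO library right. Fos takes 55.0% of its family in the GANT61 library and 78.6% in the DMSO library, while Junb takes 59.9% and 47.8% of the JUN family.

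Sequences upstream of the members were read to show which known elements lie near their starts. RefSeq promoter windows (GRCm38.p6) were matched by symbol for 9 of the 10 members, Fosl1 being the one without, and the 250 bases before each start were used. Each pattern was searched on both strands, and its share was taken over 32851 windows of the same length. The AP-1 site itself, TGANTCA, was in 6.75% of all windows. The CRE-type site of ATF and CREB factors, which JUN-ATF pairs also bind, was searched as TGACNTCA and was in 7.49%. Its shorter core, TGACGT, was in 6.47%, and lies within TGACGTCA, a form of the longer site. The CArG box of serum response factor was in 1.47% of windows. The Fos window held no match to it, but bases further upstream than 250 were not searched. A TATA box, searched as TATAAA, was in 12.4%. The site of GLI factors, GACCACCCA, was in 0.225%, and a general STAT site, TTCNNNGAA, was in 7.02% of windows.

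The members with matches are Fos, Jun, Atf3, Batf and Maff, and 4 of these windows are shown as examples of members called higher, called lower and neither. They are given 5′ to 3′ on the strand of the gene, with matches in capitals. Fos is chr12:85473640-85473889 (plus strand), Jun is chr4:95052223-95052472 (minus strand), Atf3 is chr1:191183334-191183583 (minus strand) and Maff is its second annotated start, chr15:79347270-79347519 (plus strand).
Fos: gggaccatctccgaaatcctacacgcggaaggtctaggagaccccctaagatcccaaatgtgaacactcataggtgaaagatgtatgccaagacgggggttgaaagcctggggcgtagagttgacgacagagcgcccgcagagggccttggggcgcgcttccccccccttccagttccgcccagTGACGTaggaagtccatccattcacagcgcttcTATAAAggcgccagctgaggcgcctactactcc
Jun: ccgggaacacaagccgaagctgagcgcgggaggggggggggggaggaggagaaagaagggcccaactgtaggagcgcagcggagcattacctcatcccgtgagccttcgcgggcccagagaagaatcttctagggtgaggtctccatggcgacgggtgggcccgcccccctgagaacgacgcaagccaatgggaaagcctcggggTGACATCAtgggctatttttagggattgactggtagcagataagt
Atf3: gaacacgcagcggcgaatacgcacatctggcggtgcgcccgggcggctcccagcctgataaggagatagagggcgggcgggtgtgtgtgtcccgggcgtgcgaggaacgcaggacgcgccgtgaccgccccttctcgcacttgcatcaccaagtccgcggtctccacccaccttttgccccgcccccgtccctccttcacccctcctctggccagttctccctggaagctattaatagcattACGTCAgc
Maff: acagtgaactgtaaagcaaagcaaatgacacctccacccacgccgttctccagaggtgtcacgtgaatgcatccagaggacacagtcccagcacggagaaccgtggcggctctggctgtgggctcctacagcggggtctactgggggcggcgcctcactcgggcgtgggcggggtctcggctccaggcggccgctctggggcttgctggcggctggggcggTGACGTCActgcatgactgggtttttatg
In Fos the core lies 66 to 61 bases and the TATA box 33 to 28 bases before the start. In Jun the site TGACATCA lies 45 to 38 bases before the start. In Atf3 the core, read on the other strand, lies 8 to 3 bases before the start, and in Maff the full site TGACGTCA lies 29 to 22 bases before it. Batf has a core 98 to 93 bases before its start, and the third start of Maff has TGACATCA 45 to 38 bases before it. Members called higher (Atf3, Batf, Maff), called lower (Fos) and neither (Jun) thus all hold such letters. None of the windows of Fosl2, Fosb, Junb and Jund held any of the 7 patterns, nor did that of the first start of Maff. With 3 windows, Maff had more places for a match than the other members. RefSeq starts can differ from the gene positions given above. The Jund window, chr8:70697489-70697738, ends before the gene start of 70698949, so the bases next to that start were not searched. The windows of Fosl2 (chr5:32136222-32136471) and Atf3 lie inside those genes.

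Other bZIP genes that pair with AP-1 proteins or resemble them were listed beside the members. Of 18 such genes past the floor of 1 CPM, 5 were called higher and 0 lower, and the median log2 ratio was 0.31. The counts of this and the later lists stand beside 14.1% called higher and 10.3% called lower of all 13939 genes. Maf, a large MAF factor, was at 143 CPM in the GANT61 library and 63.7 CPM in the DMSO library, a ratio of 2.25 (2.16 to 2.34). Nfe2, a partner of small MAF proteins, had a ratio of 1.90 (1.59 to 2.29) and Bach1, a repressor that pairs with them, of 1.65 (1.59 to 1.71). Mafg, a small MAF gene like Maff, had a ratio of 1.61 (1.51 to 1.71).

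Jdp2, which encodes a JUN-binding repressor and lies between Fos and Batf on chromosome 12, was called higher, with a ratio of 1.54 (1.43 to 1.67). These 3 neighbours therefore did not share a direction, as Fos was called lower and Batf higher. The Batf relatives were not called, with ratios of 1.30 (1.13 to 1.5) for Batf3 and 0.897 (0.824 to 0.976) for Batf2.

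Genes that act upstream of AP-1 showed few calls. Among 30 genes of the MAP kinase cascades, 1 was called higher and 0 lower, and the median log2 ratio was 0.05. The higher gene was Map3k8, which encodes the kinase TPL2 that links inflammatory receptors to ERK in macrophages, at 18.7 CPM in the GANT61 library and 7.62 CPM in the DMSO library, a ratio of 2.45 (2.20 to 2.74). Among 10 genes of serum response and CREB factors 0 were called in either direction, with a median of 0.29. Srf, which drives Fos through its serum response element, had a ratio of 1.20 (1.14 to 1.25), Elk3 of 1.11 (1.07 to 1.14) and Stat3 of 1.21 (1.19 to 1.24).

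Other immediate early genes differed among themselves in direction. Of 30 considered, 12 were called higher and 0 lower, their median log2 ratio was 0.29, and 10 had ratios below 1. The highest ratios were those of Gadd45b at 3.19 (2.95 to 3.46), Csrnp1 at 3.17 (2.98 to 3.37), Dusp5 at 3.02 (2.64 to 3.47) and Rgs1 at 3.0 (2.77 to 3.26). Dusp5 encodes a nuclear phosphatase of ERK, and Csrnp1 a nuclear factor induced early after stimulation. Egr1, a zinc finger factor commonly induced alongside Fos, was at 74.6 CPM in the GANT61 library and 83.2 CPM in the DMSO library, a ratio of 0.896 (0.861 to 0.934), short of the threshold.

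Genes listed for a part in AP-1 turnover or repression had 0 of 12 called higher and 1 lower, and their median log2 ratio was -0.13. Their roles differ, and their action on AP-1 was not tested here. The lower gene was Trib2, a pseudokinase scaffold for protein degradation, at 57.9 CPM in the GANT61 library and 116 CPM in the DMSO library, a ratio of 0.499 (0.478 to 0.520).

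Most genes named in the literature as AP-1 targets were called higher. Of 29 considered, 19 were called higher and 0 lower, their median log2 ratio was 1.24, and 27 had ratios above 1. The highest ratios were those of matrix metalloproteinases, enzymes that cut extracellular matrix. Mmp10 was at 81.3 CPM in the GANT61 library and 11.7 CPM in the DMSO library, a ratio of 6.92 (6.40 to 7.49). Mmp12, the macrophage elastase, had a ratio of 6.75 (6.61 to 6.90), Mmp13 of 6.53 (6.36 to 6.70) and Mmp3 of 4.73 (4.60 to 4.87). The list was written with earlier results of these data known, so its count is not independent evidence of a direction, and most of these genes also answer to other factors.

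Markers of several cell types differed beside the members, and their part in the members' values was not tested. Macrophage markers had 10 of 12 called higher, with summed levels of 5329 CPM in the GANT61 library and 2546 CPM in the DMSO library. Stratified epithelium markers had 9 of 10 called higher, with sums of 1674 CPM in the GANT61 library and 906 CPM in the DMSO library. Of 8 neutrophil markers 2 (Ly6g and Camp) were below the floor, and of the other 6, 5 were called higher and 1 (Ngp) lower. All 8 summed to 725 CPM in the GANT61 library and 147 CPM in the DMSO library. Of these sums Ltf alone held 403 CPM in the GANT61 library and 93.1 CPM in the DMSO library. Adipocyte markers had 10 of 10 called lower, with sums of 1014 CPM in the GANT61 library and 6463 CPM in the DMSO library.

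Other lists had medians on the log2 scale that were smaller in size. These were 0.14 for fibroblasts, -0.24 for simple epithelium, -0.42 for endothelium and -0.32 for smooth muscle and pericytes. Mast cells were at 0.55, B cells at 0.12 and T and natural killer cells at -0.004. Some of their markers were called all the same, beside 14.1% called higher and 10.3% called lower of all genes considered. In all, 22.2% of the T and natural killer cell markers, 20% of those of simple epithelium and 10% of those of fibroblasts were called. These are no more than among all genes. Mast cells had 3 of 8 higher and T and natural killer cells 2 of 9 higher. Endothelium had 3 of 10 lower, simple epithelium 2 of 10 lower and fibroblasts 1 of 10 lower. Smooth muscle and pericytes had 1 higher and 2 lower of 8, and B cells had 0 of 8 called. No marker of these 11 lists was at 0 reads in either library. The defining macrophage genes were present, with Lyz2 at 2477 CPM in the GANT61 library and 1177 CPM in the DMSO library and Csf1r at 794 and 304 CPM. AP-1 genes are expressed in all of these cell types, and which cells gave the members' reads was not tested.

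**Figure D4:**
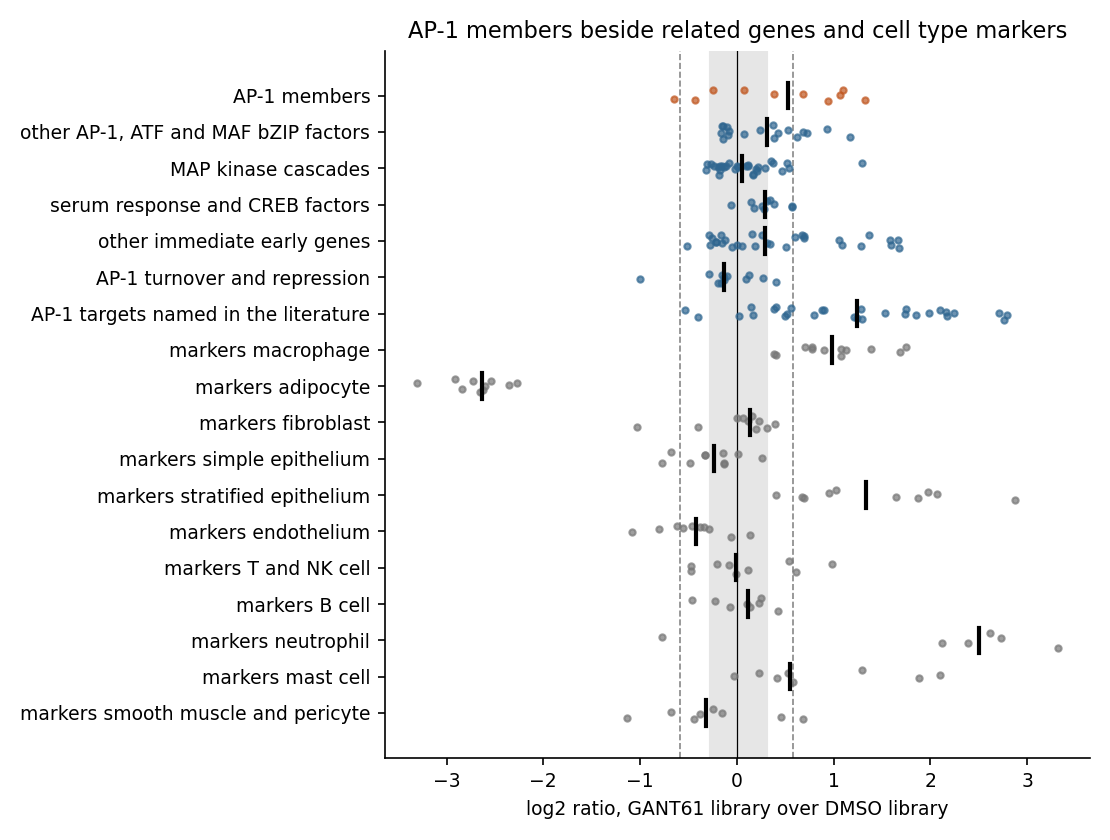
log2 ratio, GANT61 library over DMSO library, of each gene past the floor of 1 CPM in the AP-1 list (top row), 6 related lists and 11 lists of cell type markers. Each point is a gene, black bars are medians, dashed lines are the 1.5-fold thresholds and the grey band is the middle 50% of all genes considered; the AP-1 median is 0.53, beside 1.24 for targets, 0.99 for macrophage markers and -2.64 for adipocyte markers.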

How the data were processed

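Messenger RNA libraries of mouse macrophage cultures were sequenced on an Illumina instrument, per the labels. The authors deposited estimated counts for each gene without normalization, and RPKM values, each with 1 column per library. Per the submitters' processing notes, the tools were Partek, STAR, SAMtools, HISAT2 and cutadapt, with mm10 and hg19 as builds. What each did, how reads were counted and whether strand was used are not given in the sources used here. Columns were tied to libraries by treatment name, since the numbers in the column names differ from those in the sample titles, and the direction of every ratio rests on this.

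Expected counts were rounded, scaled by TMM in edgeR 4.0.16 (R 4.3.3) and turned into ratios with a prior count of 0.5 and exact Clopper-Pearson intervals (scipy 1.17.1). Intervals cover counting error only, and treat each read as an independent count. Since PCR copies of a molecule were not marked, the intervals may be too narrow even for that error. Calls are a fixed rule of size that compares these libraries, not the conditions. Members relative to Fos or Jun are conditional odds ratios with exact intervals. The ratio intervals and the call rule were tested on simulated Poisson counts with known library sizes. TMM scaling and the odds ratios were not part of that test. Size factors of DESeq2 1.42.0 were an alternative.

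The named genes were all 10 members, up to 4 called genes of each list with the largest log2 ratio in size, the 2 most abundant genes where none was called or for cell type markers, and Jdp2, Batf2, Batf3, Egr1 and Srf. Not every marker that the rule names is printed, and genes overlapping a member were added after seeing the data. The members and lists were chosen with earlier results of these data known. Of 246 list entries, 1 was not analysed here, and a gene that belonged to the bZIP list is not reported here.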

Additional observations from a re-analysis of the deposited data

How the results depend on the processing

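The 5 members called higher and the 1 called lower were the same genes under DESeq2 size factors, library totals and upper-quartile scaling. The same held for the deposited RPKM values, a prior count of 2, and removal of the trend in gene length or in GC content. Floors of 0 and 5 CPM could not change a member's call, since the lowest mean was 6.72 CPM (Fosl1). At a fold threshold of 2, 3 members were called higher and 0 lower. The median log2 ratio of the members was 0.64 with the GC trend removed, instead of 0.53. It lies midway between Junb and Maff in both settings. With that trend removed, Junb went from 0.38 to 0.56 and Maff from 0.69 to 0.72. The cause of the GC trend was not tested. Over 8 settings the Fos log2 ratio ran from -0.70 to -0.62, that of Jund from -0.29 to 0.09 and that of Junb from 0.33 to 0.56, and no called member changed sign. All members had a mean above the floor, so the median over members past it was the same. Depth limited the values little: the widest interval was that of Fosl1, with 546 reads in the GANT61 library and 240 reads in the DMSO library. The unknown spread between replicates limits all values. No paired analysis was possible because there was 1 library per group, and for the same reason no library could be left out.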
